A study of Homo sapiens with 6 samples.

Results

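The genes described here are the subunits, inhibitors and feedback genes of the transcription factor NF-kB, measured in PANC1 cells given gemcitabine or vehicle. They were chosen by name, with earlier results of these data known: the 5 subunit genes NFKB1, NFKB2, REL, RELA and RELB, the 3 inhibitor genes NFKBIA, NFKBIB and NFKBIE, and the 2 feedback genes TNFAIP3 and BIRC3. All 10 were found among the 20461 genes of the expression table. PANC1 is an established human pancreatic carcinoma cell line, and all libraries came from this 1 line, grown in medium with charcoal-stripped, dialyzed serum. The vehicle group received 0.1% DMSO and the other group 50 nM gemcitabine, a chain-terminating cytidine analogue, and RNA was taken at 48 h. There were 2 RNA-seq libraries per condition, and DNaseI-seq, which marks open chromatin, had 1 library per condition. RNA libraries are numbered here by their index in the deposited table, which matches no replicate number given in the labels.

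NF-kB proteins act as dimers that bind short DNA sites called kB sites. In resting cells the IkB proteins, encoded by NFKBIA, NFKBIB and NFKBIE, hold dimers of RELA, REL and p50 in the cytoplasm. In the canonical pathway the IKK complex marks IkB for destruction and the dimers enter the nucleus. In the alternative pathway a kinase cascade processes the NFKB2 product, p100, to p52, which works with RELB. NFKB2, RELB, NFKBIA, NFKBIE, TNFAIP3 and BIRC3 are themselves known NF-kB targets, so that the pathway feeds back on its own parts. In pancreatic carcinoma, NF-kB is known for its activity in tumour cells and in their response to drugs.

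The promoter windows of the members are shown first because several of these genes are known to be controlled by NF-kB itself. Each window ran from 250 bases before to 50 bases after a RefSeq transcript start (RefSeq table on GRCh38.p14), and each matched a single place in hg19, the build of the deposited peaks, from which the coordinates are given. The table held windows for 8 of the 10 members, 13 windows in all. RELB and NFKBIE had none. Windows were searched on both strands for a loose motif (3 G, any 5 bases, then 2 C) and for the stricter kB consensus, every match of which is also a match of the loose motif. In the 4 windows below, bases covered by a match of the kB consensus on either strand are in capitals, and all are written 5′ to 3′ along the gene.
BIRC3 (hg19 chr11:102187965-102188264, + strand): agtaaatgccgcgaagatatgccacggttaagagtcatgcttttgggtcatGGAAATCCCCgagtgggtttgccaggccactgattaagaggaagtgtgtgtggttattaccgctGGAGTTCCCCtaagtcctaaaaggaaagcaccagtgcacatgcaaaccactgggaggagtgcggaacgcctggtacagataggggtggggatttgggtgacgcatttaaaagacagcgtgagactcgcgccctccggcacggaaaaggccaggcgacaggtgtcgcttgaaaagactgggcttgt
TNFAIP3 (hg19 chr6:138188146-138188445, + strand): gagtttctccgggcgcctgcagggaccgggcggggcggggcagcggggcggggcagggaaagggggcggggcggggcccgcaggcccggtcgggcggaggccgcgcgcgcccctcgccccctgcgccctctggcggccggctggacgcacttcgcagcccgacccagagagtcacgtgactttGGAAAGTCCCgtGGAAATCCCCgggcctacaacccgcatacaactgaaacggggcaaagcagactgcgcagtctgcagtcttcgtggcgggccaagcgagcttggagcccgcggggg
NFKBIA (hg19 chr14:35873906-35874205, - strand): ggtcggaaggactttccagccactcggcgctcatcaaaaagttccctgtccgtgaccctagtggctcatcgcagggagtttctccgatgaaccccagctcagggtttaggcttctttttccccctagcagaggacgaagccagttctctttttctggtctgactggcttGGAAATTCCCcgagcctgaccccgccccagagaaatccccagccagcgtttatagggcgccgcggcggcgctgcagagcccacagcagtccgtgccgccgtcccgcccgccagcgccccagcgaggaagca
NFKB2 (hg19 chr10:104154085-104154384, + strand, one of 3 windows): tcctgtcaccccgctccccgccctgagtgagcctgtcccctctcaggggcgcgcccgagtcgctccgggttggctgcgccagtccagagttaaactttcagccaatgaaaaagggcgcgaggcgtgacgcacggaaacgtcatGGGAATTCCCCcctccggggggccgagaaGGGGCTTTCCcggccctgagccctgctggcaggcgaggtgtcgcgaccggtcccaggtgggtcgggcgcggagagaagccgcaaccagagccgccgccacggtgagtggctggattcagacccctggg
The shorter stretches below show the kB consensus in members whose transcripts did not rise, again in capitals.
NFKB1 (hg19 chr4:103422457-103422486, + strand): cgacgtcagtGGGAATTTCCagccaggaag
REL (hg19 chr2:61108652-61108681, + strand): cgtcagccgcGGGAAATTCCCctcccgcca
NFKBIB (hg19 chr19:39390571-39390600, + strand): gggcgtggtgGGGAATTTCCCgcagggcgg

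Of the 8 members with a window, 7 held the kB consensus in at least 1 window, and RELA held none. Among all genes of that table, 8.4% held it, and 6.53% of the 22199 windows did. The loose motif was in 8 of 8 members, but also in 72.8% of all genes, so it does not set the members apart. In BIRC3, which encodes the ubiquitin ligase cIAP2, the 2 matches lay at -199 to -190 and -135 to -126 from the start. In TNFAIP3, which encodes the deubiquitinase A20, a brake on NF-kB signalling, they lay at -67 to -58 and -55 to -46, and in NFKBIA, which encodes IkB alpha, the match lay at -81 to -72. A match is a description of the letters and says nothing of whether NF-kB binds there.

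**Figure D1:**
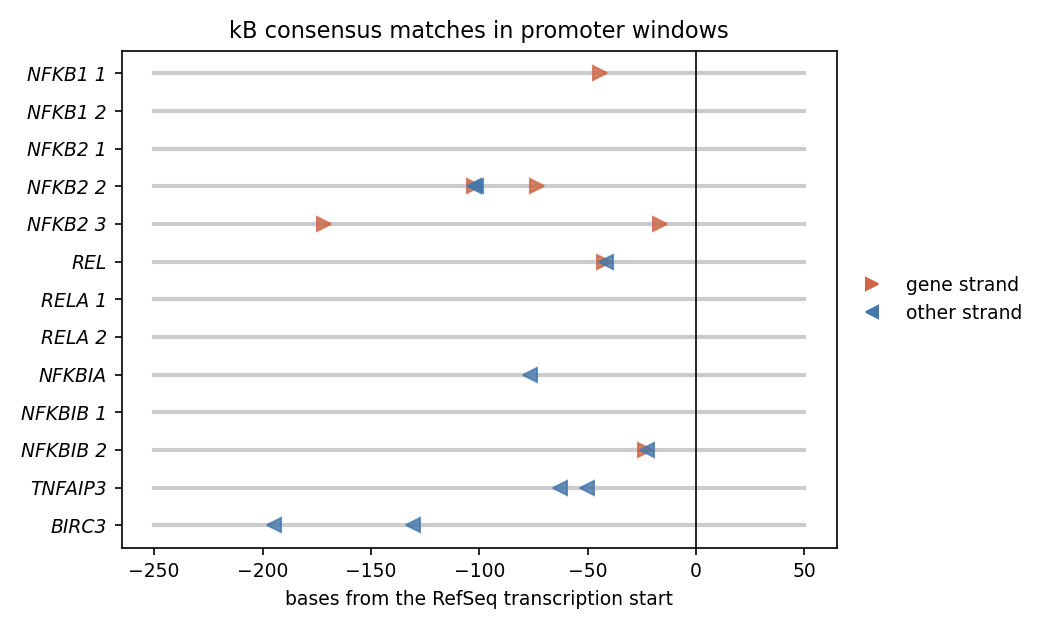
Position of each match of the kB consensus in the 13 promoter windows of 8 members; the x axis is the distance in bases from the RefSeq transcript start, each row is a window, and marks are matches on either strand. The BIRC3 matches lie at -199 and -135, and those of TNFAIP3 and NFKBIA between -81 and -46.

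In total, 6 of the 10 members were higher with gemcitabine and none was called lower. A call needed an adjusted p under 0.05 in the quasi-likelihood test of edgeR, adjusted by Benjamini-Hochberg over all genes, a fold change over 1.5, a mean of at least 0.1 FPKM in 1 condition and a difference in mean FPKM of at least 1. FPKM is the abundance per transcript length and library size that Cuffdiff estimated, and it is not a fixed multiple of a gene's fragment count, so the 2 scales can differ. By this rule 5.69% of the 14854 genes tested were called higher (845) and 4.43% lower (658). Scaled to library totals in place of TMM, the counts were 1164 and 417. The median log2 fold change over the 10 members was 0.83, against 0.01 over all genes tested. Since the members were chosen with results known, this count and median describe them and are no independent evidence. The members called higher were NFKB2, RELB, NFKBIA, NFKBIE, TNFAIP3 and BIRC3. By adjusted p alone, which called 18.5% of genes higher and 20% lower, NFKB1 and NFKBIB were lower as well. By unadjusted p under 0.05, 6 members were higher and 2 lower in edgeR, against 23.1% and 24.1% of all genes, and 6 higher and 0 lower in DESeq2, against 16% and 18.6%. In bulk RNA, fewer cells of a type and less RNA per cell cannot be told apart. The same 6 members were called in DESeq2, and all 6 kept their direction with each library left out. Limma on log2(FPKM + 1) with no filter on low values called 0 genes (6 members and 4689 genes at unadjusted p under 0.05). The other limma forms used a filter, a mean of at least 0.1 FPKM, that was set after this result was seen.

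**Figure D2:**
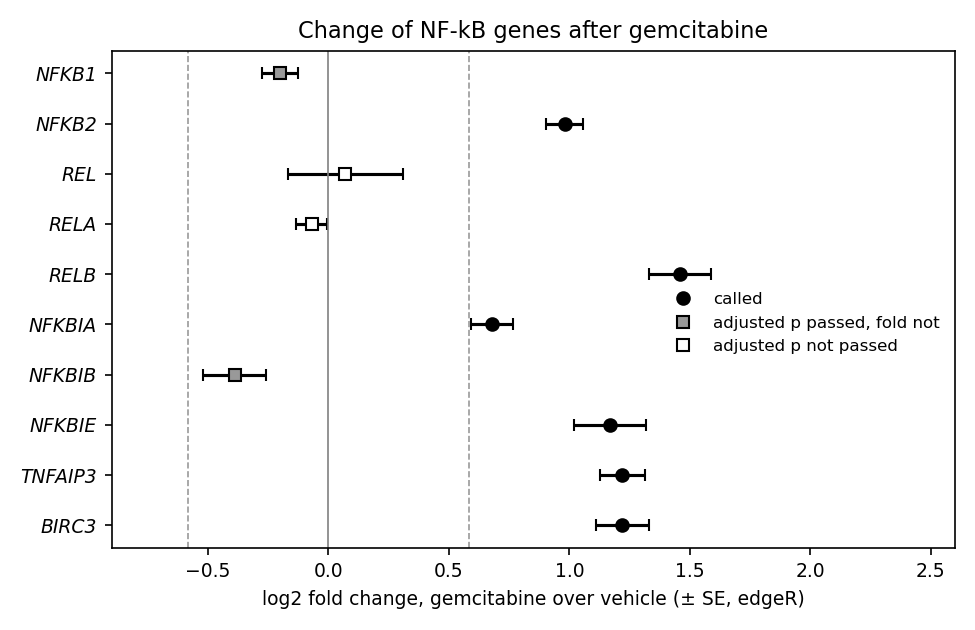
Log2 fold change of each member, gemcitabine over vehicle, from edgeR, with bars of 1 standard error; dashed lines mark 1.5-fold in either direction, circles are called, grey squares passed the adjusted p but not the fold, and white squares passed neither. The 6 called members lie between 0.68 and 1.46, and the other 4 between -0.39 and 0.07. Each standard error was derived from the log2 fold change and the F statistic of the test.

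Among the subunits, RELB and NFKB2 rose, RELB with the larger fold change. RELB, the partner of p52 in the alternative pathway, had 165 and 133 fragments with vehicle and 382 and 376 with gemcitabine. Both gemcitabine libraries lay above both vehicle libraries, and the log2 fold change was 1.46 ± 0.13 (SE, n = 2 and 2; adjusted p = 9.26e-07, edgeR's quasi-likelihood test). NFKB2, whose product p100 is processed to p52, had 723 and 714 fragments with vehicle and 1250 and 1377 with gemcitabine, a log2 fold change of 0.98 ± 0.079 (SE, adjusted p = 4.84e-07, same test). Its level went from 20.7 ± 3.44 to 43.4 ± 0.0525 FPKM (SD, n = 2).

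The subunits of the canonical dimers moved little. NFKB1, which encodes p105 and p50, had 887 and 899 fragments with vehicle and 706 and 726 with gemcitabine, a log2 fold change of -0.20 ± 0.074 (SE, adjusted p = 0.0418, edgeR), under the 1.5-fold needed for a call. The groups did not overlap, which was so for 34.7% of all genes tested in this direction and 35% in the other; among the members, 3 were apart with gemcitabine lower and 6 with it higher. The adjusted p of NFKB1 rose above 0.05 without vehicle library 1, vehicle library 2 or gemcitabine library 1, and in DESeq2 (0.175). RELA, which encodes p65, had 1940 and 1974 fragments with vehicle and 1723 and 1725 with gemcitabine, and a log2 fold change of -0.07 ± 0.065 (SE, adjusted p = 0.433, edgeR) that became 0.04 when scaled to library totals. The difference was larger in FPKM, from 133 ± 25.2 to 94.7 ± 8.72 (SD, n = 2), a log2 ratio of -0.49. REL, which encodes c-Rel, had 58 and 109 fragments with vehicle and 84 and 78 with gemcitabine. The groups overlapped, and its log2 fold change was 0.07 ± 0.24 (SE, adjusted p = 0.832, edgeR), and -0.27 without vehicle library 1.

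The subunits shifted in proportion. The sum of their FPKM did not separate the groups, at 163 and 193 with vehicle and 172 and 162 with gemcitabine, but their summed fragments in CPM, with no scaling to length, did, at 249 and 243 and then 314 and 323. RELA made up 70.6% and 78.2% of the summed FPKM with vehicle and 58.5% and 54.6% with gemcitabine. In fragments without length its share was 51.4% and 51.6%, then 41.6% and 40.3%. The FPKM share of NFKB2 was 14.2% and 9.5%, then 25.1% and 26.8%, and that of RELB 3.24% and 2.21%, then 7.71% and 7.79%. The libraries did not overlap for any of these 3 genes, and RELA remained the largest share in all 4. NFKB2 per NFKB1 in FPKM was 1.28 and 1.06 with vehicle and 3.38 and 2.79 with gemcitabine. RELB per RELA was 0.0458 and 0.0283 with vehicle and 0.132 and 0.143 with gemcitabine. In fragments without length the sizes differed, with mean NFKB2 per NFKB1 at 0.804 and then 1.83 and mean RELB per RELA at 0.0762 and then 0.22, both again higher in each gemcitabine library. No test was run on shares or ratios, since 2 against 2 libraries cannot give an exact permutation p below 0.33.

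**Figure D3:**
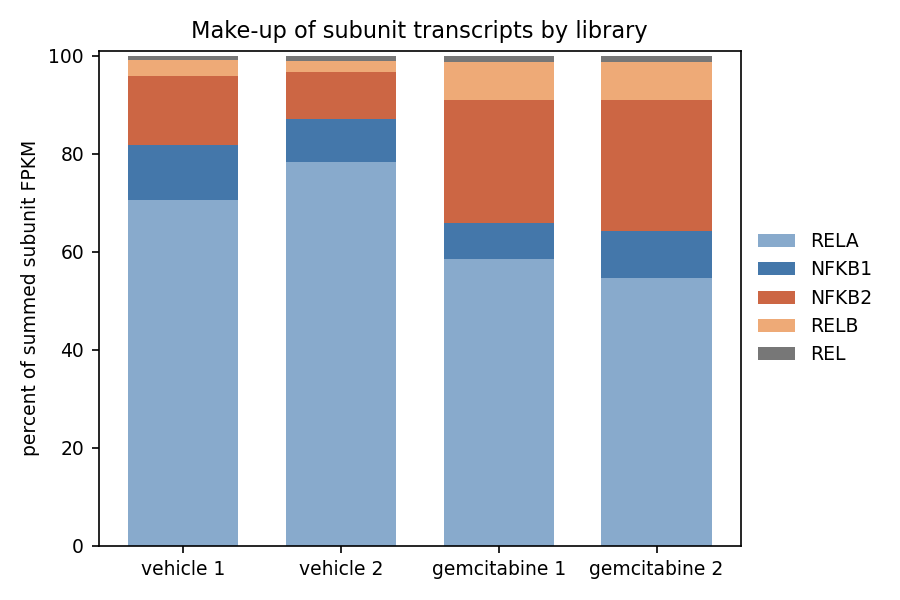
Share of the summed FPKM of the 5 subunit genes held by each gene, in percent, in each of the 4 RNA libraries. The RELA share is lower and the NFKB2 and RELB shares are higher in both gemcitabine libraries.

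Of the 3 inhibitor genes, 2 were called higher. NFKBIE, which encodes IkB epsilon, had 107 and 92 fragments with vehicle and 202 and 213 with gemcitabine, a log2 fold change of 1.17 ± 0.15 (SE, adjusted p = 2.54e-05, edgeR). NFKBIA had 453 and 431 with vehicle and 679 and 629 with gemcitabine, a log2 fold change of 0.68 ± 0.087 (SE, adjusted p = 3.05e-05, edgeR), which is a 1.60-fold change and close to the limit of a call. NFKBIB, which encodes IkB beta, went the other way: 226 and 207 with vehicle and 161 and 144 with gemcitabine. Its log2 fold change was -0.39 ± 0.13 (SE, adjusted p = 0.0295, edgeR), under 1.5-fold, and its FPKM changed less, with a log2 ratio of -0.13. Its adjusted p rose above 0.05 without vehicle library 1, vehicle library 2 or gemcitabine library 2, and in DESeq2 (0.172). NFKBIB shares 40 of its 2324 exon bases with SIRT2 on the opposite strand, and the counting is not stated to use strand. No other member shares exon bases with a gene of the table.

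Both feedback genes rose. TNFAIP3 had 248 and 275 fragments with vehicle and 549 and 574 with gemcitabine, a log2 fold change of 1.22 ± 0.094 (SE, adjusted p = 3.57e-07, edgeR). BIRC3 had 168 and 183 with vehicle and 370 and 388 with gemcitabine, a log2 fold change of 1.22 ± 0.11 (SE, adjusted p = 1.16e-06, edgeR). In FPKM, BIRC3 spread more between the vehicle libraries, at 3.48 and 1.95, than TNFAIP3, at 6.30 and 6.64. With gemcitabine BIRC3 was at 5.52 and 6.91 FPKM and TNFAIP3 at 16.3 and 14.6. On log2(FPKM + 1) limma gave BIRC3 an adjusted p of 0.0556.

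Ranked by mean FPKM in vehicle, the members ran from RELA, NFKBIA at 41.1 ± 8.42, NFKB2, NFKB1 at 17.7 ± 0.611 and NFKBIB at 11.3 ± 0.127 to TNFAIP3 at 6.47 ± 0.237, NFKBIE at 5.00 ± 0.587, RELB at 4.77 ± 0.713, BIRC3 at 2.71 ± 1.08 and REL at 1.80 ± 0.506 (SD, n = 2). The libraries of NFKBIE and RELB overlapped, as did those of BIRC3 and REL, so these neighbours were not separated. With gemcitabine TNFAIP3, at 15.4 ± 1.19, stood beside NFKB1, at 14.2 ± 1.95, and NFKBIE, at 12.8 and 13.2 in its libraries, beside RELB, at 13.3 and 12.6. Each of these 4 overlapped its neighbour in the order.

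**Figure D4:**
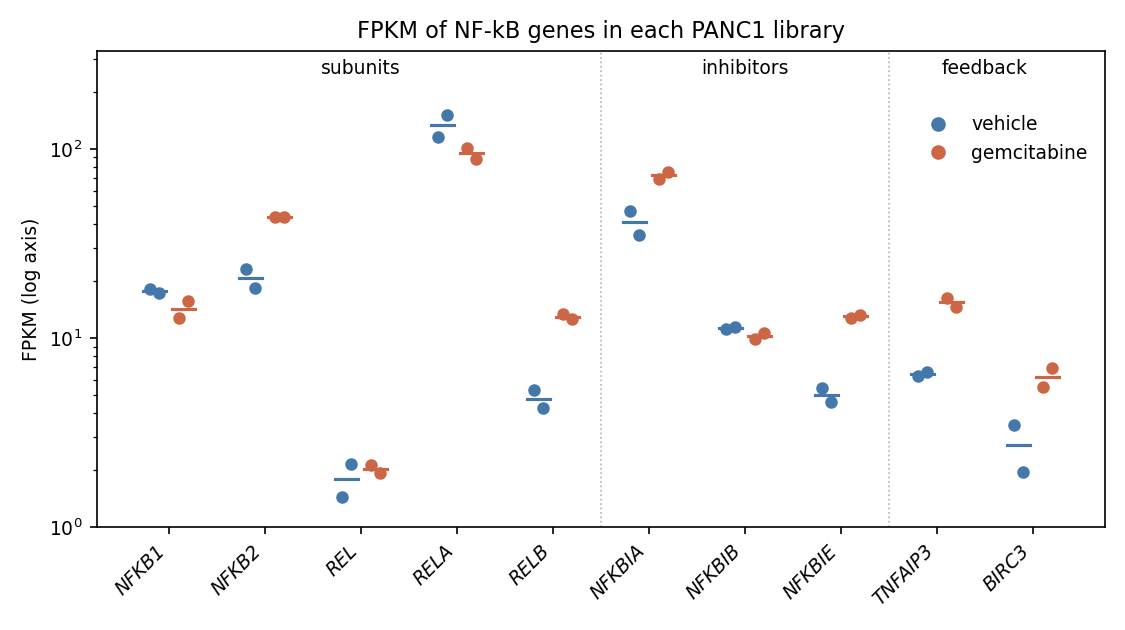
FPKM of the 10 members in each RNA library on a log axis; each point is 1 library, coloured by condition. NFKB2, RELB, NFKBIA, NFKBIE, TNFAIP3 and BIRC3 have both gemcitabine points above both vehicle points, while the REL points are mixed.

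Open chromatin was read from peak lists called separately in each condition, 9606 peaks with vehicle and 10695 with gemcitabine. A peak lay within 5 kb of an annotated transcript start for 3 members with vehicle (NFKB2, RELB and NFKBIB) and for 4 with gemcitabine (the same 3 and BIRC3). Over all 18838 genes compared, 24.7% had such a peak with vehicle and 28.3% with gemcitabine, and 9.67% had one in the gemcitabine list alone and 6.04% in the vehicle list alone. There was 1 library per condition, so that no replicate check or test was possible.

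The BIRC3 peak, listed with gemcitabine alone, ran from 102187880 to 102188814 on chromosome 11 (hg19), 935 bases that span the start at 102188215 and overlap an exon. Its peak score was 66.01, the lists holding none under 50. Both kB consensus matches of the printed BIRC3 window lie within it. Since the vehicle list is cut at a threshold, a region open below it would be missing from that list. The NFKB2 region was in both lists, at 104153515-104154721 on chromosome 10 with vehicle (score 131.49) and 104153524-104154848 with gemcitabine (score 126.31), and holds the consensus in 3 separate stretches, read as 7 matches over overlaps and both strands. The RELB region on chromosome 19 was in both lists too, with scores of 60.35 and 61.15. It held 0 matches of the consensus. The NFKBIB region, also in both, scored 99.22 with vehicle and 122.32 with gemcitabine. At a score of at least 100, where 7.02% of genes had a peak with vehicle and 8.65% with gemcitabine, the members with one were NFKB2 in both lists and NFKBIB with gemcitabine alone, and BIRC3 had none. Within 10 kb, RELA also had a peak with gemcitabine alone. It lay outside the gene, past its 3′ end, 6451 bases from the nearest annotated start. No peak of either list lay within 5 kb of a start of NFKBIA, NFKBIE or TNFAIP3, which rose, or of NFKB1, REL or RELA. Both lists are cut at a threshold, so the lack of a peak does not show that these starts were closed. The study joined its peaks with ENCODE peaks of PANC1 into a larger set, which was not used here.

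**Figure D5:**
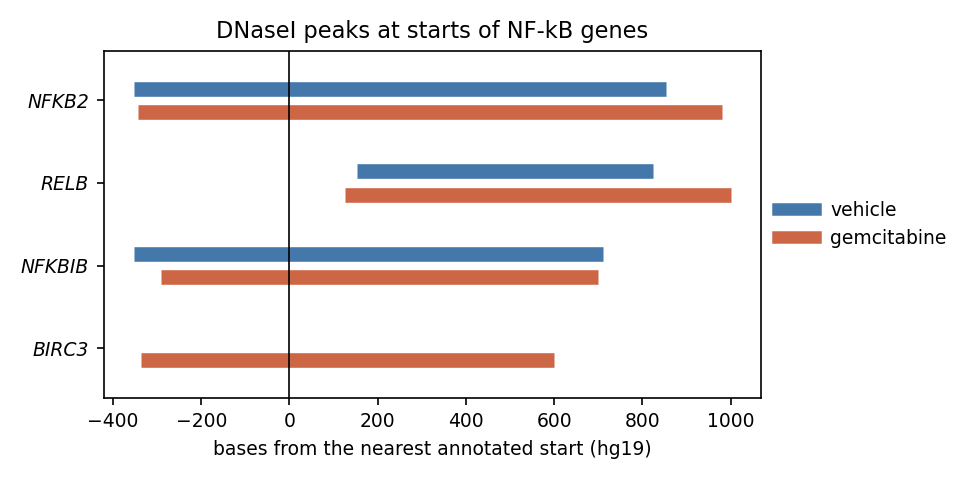
Peaks of the vehicle and gemcitabine DNaseI-seq lists near the 4 members that have any within 5 kb; the x axis is the distance in bases from the nearest annotated transcript start, and each bar is a peak drawn to scale. NFKB2, RELB and NFKBIB have a bar in both conditions and BIRC3 in gemcitabine alone.

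The other genes of the pathway were taken in lists by their role. Of 26 kinase and adaptor genes listed, 23 were tested, and 1 was called higher and 0 lower (median log2 fold change 0.17). Over all genes tested, the call rule gave 5.69% higher and 4.43% lower. By adjusted p alone 7 were higher and 4 lower, against 18.5% and 20% of all genes. By unadjusted p under 0.05, 8 were higher and 5 lower in edgeR, and 5 and 4 in DESeq2. The shares of all genes were 23.1% and 24.1% in edgeR, and 16% and 18.6% in DESeq2. The 1 called was BCL10, an adaptor of the antigen receptor route to IKK, at 269 and 292 fragments with vehicle and 376 and 427 with gemcitabine. Without gemcitabine library 2 its log2 fold change of 0.63 became 0.53, under 1.5-fold. CHUK, which encodes the IKK alpha kinase, had a log2 fold change of -0.10 ± 0.073 (SE, adjusted p = 0.29, edgeR) and IKBKB, IKK beta, -0.16 ± 0.076 (SE, adjusted p = 0.113, edgeR). Cuffdiff gave IKBKB a status other than OK, as it did 275 genes in all, no member among them. These genes were kept in the tests. IKBKG and MAP3K14 were not matched in the table and were not analysed here. TRAF3 and BIRC2, parts of the complex that limits the alternative pathway and chosen after their values were seen, went in opposite directions without reaching 1.5-fold. TRAF3 had 679 and 712 fragments, then 463 and 486 (log2 fold change -0.44 ± 0.082, adjusted p = 0.000748, edgeR), and BIRC2 502 and 534, then 664 and 713 (0.53 ± 0.083, adjusted p = 0.000188, edgeR). Of its other parts, TRAF2 had a log2 fold change of -0.09 ± 0.083 (SE, adjusted p = 0.396, edgeR) and the member BIRC3 one of 1.22.

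A list of 16 other negative regulators also took in nuclear IkB proteins. Of these 16 genes, 15 were tested, and 2 were called higher and 0 lower, with a median of 0.28. The call rule gave 5.69% of all genes higher and 4.43% lower. By adjusted p alone 6 were higher and 0 lower, against 18.5% and 20% of all genes. By unadjusted p under 0.05, 7 were higher and 0 lower in edgeR, and 6 and 0 in DESeq2. The shares of all genes were 23.1% and 24.1% in edgeR, and 16% and 18.6% in DESeq2. Those called were CYLD, a deubiquitinase, at 233 and 271 fragments and then 392 and 414, and NFKBIZ, which encodes a nuclear IkB protein, at 87 and 95 and then 166 and 114. Whether the NFKBIZ product restrains or aids NF-kB in these cells was not tested. NFKBIZ missed an adjusted p of 0.05 in edgeR without vehicle library 1 (0.112), vehicle library 2 (0.0967) or gemcitabine library 1 (0.0566). Of 22 receptors and ligands listed, 15 had enough fragments to be tested, and 3 were called higher and 0 lower, with a median of 0.48. By adjusted p alone 5 were higher and 2 lower. By unadjusted p under 0.05, 6 were higher and 2 lower in edgeR, and 5 and 2 in DESeq2. The shares of all genes to set beside these are those given above. Those called were TLR3, a receptor of double-stranded RNA (81 and 97, then 145 and 157), TLR4, the receptor of lipopolysaccharide (358 and 362, then 646 and 614), and IL1B, the cytokine interleukin-1 beta (19 and 15, then 56 and 59). The ligand genes TNF, LTA and LTB had at most 3 fragments in any library, the count used here as the floor. LTBR, the receptor for lymphotoxin and chosen after its values were seen, had 2782 and 2723 fragments and then 1792 and 1762, a log2 fold change of -0.52 ± 0.067 (SE, adjusted p = 3.29e-05, edgeR).

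Of 37 other NF-kB target genes listed, 29 were tested, and 13 were called higher and 2 lower (median log2 fold change 0.85). The call rule gave 5.69% of all genes higher and 4.43% lower. By adjusted p alone 19 were higher and 3 lower, against 18.5% and 20% of all genes. By unadjusted p under 0.05, 20 were higher and 3 lower in edgeR, against 23.1% and 24.1% of all genes. In DESeq2 these were 18 and 3, against 16% and 18.6%. The 5 largest changes among those called with a mean of at least 1 CPM were in CXCL8, a neutrophil-attracting chemokine (24 and 13, then 103 and 120 fragments), PLAU, the urokinase protease (5 and 4, then 21 and 31), CXCL1 (5 and 11, then 27 and 25), IRF1, a transcription factor of the interferon response (126 and 168, then 391 and 345), and CXCL2 (23 and 22, then 61 and 49). The log2 fold change was 2.70 for CXCL8, 2.61 ± 0.49 for PLAU, 1.80 ± 0.44 for CXCL1, 1.44 ± 0.13 for IRF1 and 1.40 ± 0.28 for CXCL2 (SE). All but IRF1 rest on few vehicle fragments. The 2 called lower were PTGS2, which encodes cyclooxygenase-2, at 1397 and 1484 and then 678 and 809, and GADD45B, a stress-response gene, at 966 and 984 and then 552 and 573. The targets were chosen with earlier results of these data known, and no test of the list was run.

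Total assigned fragments were 15153598 and 15766232 in the vehicle libraries and 13194535 and 13275474 in the gemcitabine libraries, so that 3 fragments correspond to 0.190 to 0.227 CPM, fragments scaled to library total. Such limits cover counting error only. The epithelial keratin and EPCAM genes were present at 2.09 to 1660 FPKM. Of these, KRT19 was called higher (log2 fold change 1.13, adjusted p = 0.000645, edgeR), KRT8 and KRT18 were higher and KRT7 lower by adjusted p alone (0.29, 0.27 and -0.18), and EPCAM did not pass (-0.45). Their part in the members' changes was not tested. The 5 leukocyte markers summed to 5 and 3 fragments with vehicle and 15 and 7 with gemcitabine, with CD3E at 0 in all 4. The methods call the libraries biological replicates. The edgeR p-values set the difference between conditions against the spread between these libraries. That spread is estimated for each gene with the help of all other genes, since each condition has 2 libraries. The gemcitabine libraries differed more from each other than the vehicle libraries did. Their mean chi-square per gene, the squared difference over that due to counting error, was 5.16 against 2.17. The same spread was used for both conditions.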

How the data were processed

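RNA-seq was measured in 2 vehicle and 2 gemcitabine libraries of PANC1 cells and DNaseI-seq in 1 of each. Per the labels and methods, the authors aligned reads with TopHat2 2.0.8 and assigned them with Cuffdiff 2.0.2. The deposited table gives expected counts (fragments per gene, 86.8% of them whole) and FPKM; 2 columns of scaled fragments were not used. The deposited peak scores are those of MACS as the authors gave them; the peaks were called at p = 1e-05.

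Expected counts were rounded and tested with edgeR 4.0.16 (R 4.3.3; quasi-likelihood, TMM, a sum of at least 10 fragments per gene, Benjamini-Hochberg). Each SE is the absolute edgeR log2 fold change divided by the square root of the test's F statistic. DESeq2 1.42.0 and limma 3.58.1 on log2(FPKM + pseudocount) were alternatives, with library totals, no filter, each library left out, a replicate block and other peak settings. The model fits were run on simulated counts drawn with the spread that edgeR fitted to these data, equal in both conditions. Such counts cannot show how the fits perform where the spread differs between conditions. The named genes were all members, and of each pathway list every called gene where these numbered at most 5, otherwise the 5 called genes of largest change among those with a mean of at least 1 CPM. CHUK and IKBKB were named whatever their values. The members and lists were chosen with earlier results of these data known. Coordinates are hg19; gene starts are those of the protein-coding transcripts of Gencode.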

Additional observations from a re-analysis of the deposited data

How the results depend on the processing

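The 6 members called higher kept their call in DESeq2, with library totals, with no filter on low counts and with each library left out. Limma on log2(FPKM + 1) gave BIRC3 0.98 and with a pseudocount of 0.1 gave 1.21, neither past an adjusted p of 0.05 (0.0556 and 0.0585). Limma without a filter on FPKM called 0 genes in all, against 4689 genes and 6 members at an unadjusted p under 0.05. The filter of the other limma forms, a mean of at least 0.1 FPKM, was set after this result was seen. Without it the values were 1.04 for NFKB2, 1.28 for RELB, 0.81 for NFKBIA, 1.23 for NFKBIE, 1.13 for TNFAIP3 and 0.98 for BIRC3. In that form 0 members and 0 genes of each pathway list were called higher or lower. The cause was not tested.

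NFKB1 lost its adjusted p under 0.05 in DESeq2 (-0.20), with library totals (-0.09), with no filter (-0.20) and in limma (-0.30, -0.32 and, without the FPKM filter, -0.30), and NFKBIB in DESeq2 (-0.39), with library totals (-0.28), with no filter (-0.39) and in limma (-0.12, -0.13 and -0.12). With 1 library left out, NFKB1 ranged from -0.24 to -0.17 and NFKBIB from -0.48 to -0.29. REL ranged from -0.27 to 0.57, turning negative without vehicle library 1, and RELA became 0.04 with library totals, which moved the median of all genes from 0.01 to 0.12. By adjusted p alone 2 members were lower.

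Over all genes, 417 were called lower with library totals, and 326 and 350 in limma with a pseudocount of 1 and 0.1. With library totals and both limma forms, 2 kinases and adaptors were called higher and 1 target lower. With 1 library left out, 674 to 923 genes were called higher and 594 to 771 lower, and 0 to 2 kinases and adaptors, 1 to 2 negative regulators and 11 to 13 targets higher. Without transcript length, NFKB2 per NFKB1 was 0.805 and then 1.83, and RELB per RELA 0.0762 and then 0.22. At a peak score of at least 100, 1 member had a peak with vehicle (NFKB2) and 2 with gemcitabine (NFKB2 and NFKBIB), BIRC3 having none. Within 10 kb, 5 members had one with gemcitabine, RELA added by a peak past the end of the gene. A replicate block on the table index, whose deviations did not pair the libraries (correlation -0.051 over 12843 genes), gave 844 genes higher and 661 lower and changed no call of a member.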

Other observations

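The genes whose pattern over the 4 libraries was most like that of NFKB2, among the 10010 genes whose mean reached 10 CPM, were PDP1, GSN and ITGA11. PDP1 encodes a phosphatase of pyruvate dehydrogenase, GSN the actin-severing protein gelsolin and ITGA11 an integrin subunit. The root mean square difference from NFKB2 in centred log2 CPM was 0.0244 for PDP1, 0.029 for GSN and 0.0359 for ITGA11, over 4 libraries that differ in 1 condition.

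For some genes fragments and FPKM gave different sizes of change. PSMB9, an immunoproteasome subunit, had a log2 fold change of 0.77 in fragments and a log2 ratio of 1.64 in FPKM, and TRADD, an adaptor of the TNF receptor, 0.25 and 0.75. Both were chosen after their values were seen.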
